A study of Mus musculus with 4 samples.

Results

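Messenger RNA levels of 9 complement genes were followed across 4 states of mouse bone marrow-derived macrophages (BMDMs). The genes were the 3 chains of the recognition molecule C1q (C1qa, C1qb and C1qc), the central components C4b and C3, the alternative pathway genes Cfb and Cfp, and the receptors C3ar1 and C5ar1. Their probes were found by name, as every non-control probe that the array annotation assigned to one of these symbols. The genes themselves were picked with earlier results of these data known. They made up 9 of the 22870 genes with a symbol on the array and were read by 10 probes, of which C3 had 2. All 10 probes were well above background on all 4 arrays, so each member had a measured value in every state.

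The study asked how Lamtor1, a lysosomal scaffold protein of the Ragulator complex, and the kinase mTOR act in alternative (M2) polarization of macrophages. RNA from each of 4 cultures was hybridized to 1 Agilent whole mouse genome array in 1 colour, and all 4 arrays lay on the same slide. The cells were grown from bone marrow of C57BL/6J mice aged 10 weeks for 6 days with L929 cell supernatant, a source of M-CSF, and then stimulated for 2 days. M1 were wild-type cells given IFN-γ at 20 ng per ml together with LPS at 100 ng per ml. M2 were wild-type cells given IL-4 at 50 ng per ml. The labels call these cells wild type, while the study used floxed littermates without Cre as controls elsewhere, and which of both the arrays used is not settled. Lamtor1-deficient M2 came from mice labelled p18 -/- (an older name of Lamtor1) and received the same dose of IL-4. Per the study's methods the gene was deleted by LysM-Cre, which is active in myeloid cells. Torin1-treated M2 were wild-type cells given IL-4 at the same dose with Torin1, an ATP-competitive inhibitor of mTOR kinase, at 250 nM. IL-4 was thus common to the 3 M2 states, and M1 was the only state without it.

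The complement system is a cascade of blood and tissue proteins that tags microbes and dying cells for uptake. C1q binds to antibodies or to apoptotic cells and starts the classical pathway, in which C4 and C2 form an enzyme that cleaves C3. In the alternative pathway, factor B (Cfb) forms the C3-cleaving enzyme and properdin (Cfp) stabilizes it. The fragments C3a and C5a act on their receptors C3ar1 and C5ar1 on myeloid cells. Most plasma complement is made in the liver, but macrophages are a major source of C1q and properdin and also make C3 and factor B.

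Values are relative signals, meaning the processed spot signal of a probe divided by the 75th percentile of all non-control probes on its array. Ratios are given on the log2 scale, and a gene was counted as higher or lower where its ratio was at least 2-fold. Each condition had 1 array, which allowed no test and no replicate check, and a difference between arrays cannot be told apart from a difference between cultures. The error given is technical. It is the median SD of the log2 ratio over 214 probes that were spotted at least 8 times, and it was 0.09 for M1 over M2 and 0.08 for Lamtor1-deficient M2 over M2, for Torin1-treated M2 over M2 and for the direct ratio of these last 2 states. In such bulk RNA, fewer cells of a type and less RNA per cell cannot be told apart. Probes differ in how strongly they bind, so a sum over a marker list is set by its brightest probes and is given only to describe the list.

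The targeted gene was checked first. Lamtor1, named 2400001E08Rik on the array, had a relative signal of 51.2 in M1, 66.3 in M2 and 1.55 in Lamtor1-deficient M2, and its signal with Torin1 was 1.13-fold that in M2. All 8 macrophage markers listed were well above background on every array. A list of neutrophil markers, of which 6 of 8 were on the array, stood apart on the M2 array, with a summed relative signal of 90.5 there against 4.41 in M1, 6.30 without Lamtor1 and 5.87 with Torin1. Most of that sum was S100a9 at 65.3, and of the 6 markers 4 were well above background in M1 and all 6 on the other arrays. Of other cell types, the lymphocyte markers summed to between 2.02 and 4.07 and those of mast cells and basophils to at most 0.161. The dendritic cell markers summed to between 88.0 and 233, nearly all of it Siglech, with Cd209a and Xcr1 well above background on no array. Because every ratio to M2 has this array in its denominator, the direct ratio of Lamtor1-deficient over Torin1-treated M2, which does not use it, is given beside the ratios to M2. The part of neutrophil RNA in any result below was not tested.

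Relative to M2, 8 of the 9 genes were at least 2-fold lower in Lamtor1-deficient M2 and 0 were higher, where 8.63% of all genes were lower and 8.89% higher. C4b was the exception. In Torin1-treated M2, 6 genes were lower (the 3 C1q chains, Cfp, C3ar1 and C5ar1) and 1, Cfb, was higher, where 11.8% of all genes were lower and 14.2% higher. In M1, 3 genes were lower (C1qa, C3ar1 and C5ar1) and 2 were higher (C4b and Cfb), where 19.4% of all genes were lower and 30.4% higher. The median log2 ratio of the 9 genes was -2.91 for Lamtor1-deficient M2, -2.90 for Torin1-treated M2 and -0.58 for M1, beside 0.04, -0.05 and 0.73 over all genes. Over only the genes well above background on at least 1 of both arrays, the median of all genes in M1 was 0.07 in place of 0.73. Between the treatments themselves, 4 genes were higher in Lamtor1-deficient than in Torin1-treated M2 (the C1q chains and Cfp) and 3 were lower (C3, Cfb and C5ar1), where 11.7% of all genes were higher and 12.6% lower. The ratios to M2 share the M2 array, so only this last ratio compares the treated states directly.

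**Figure D1:**
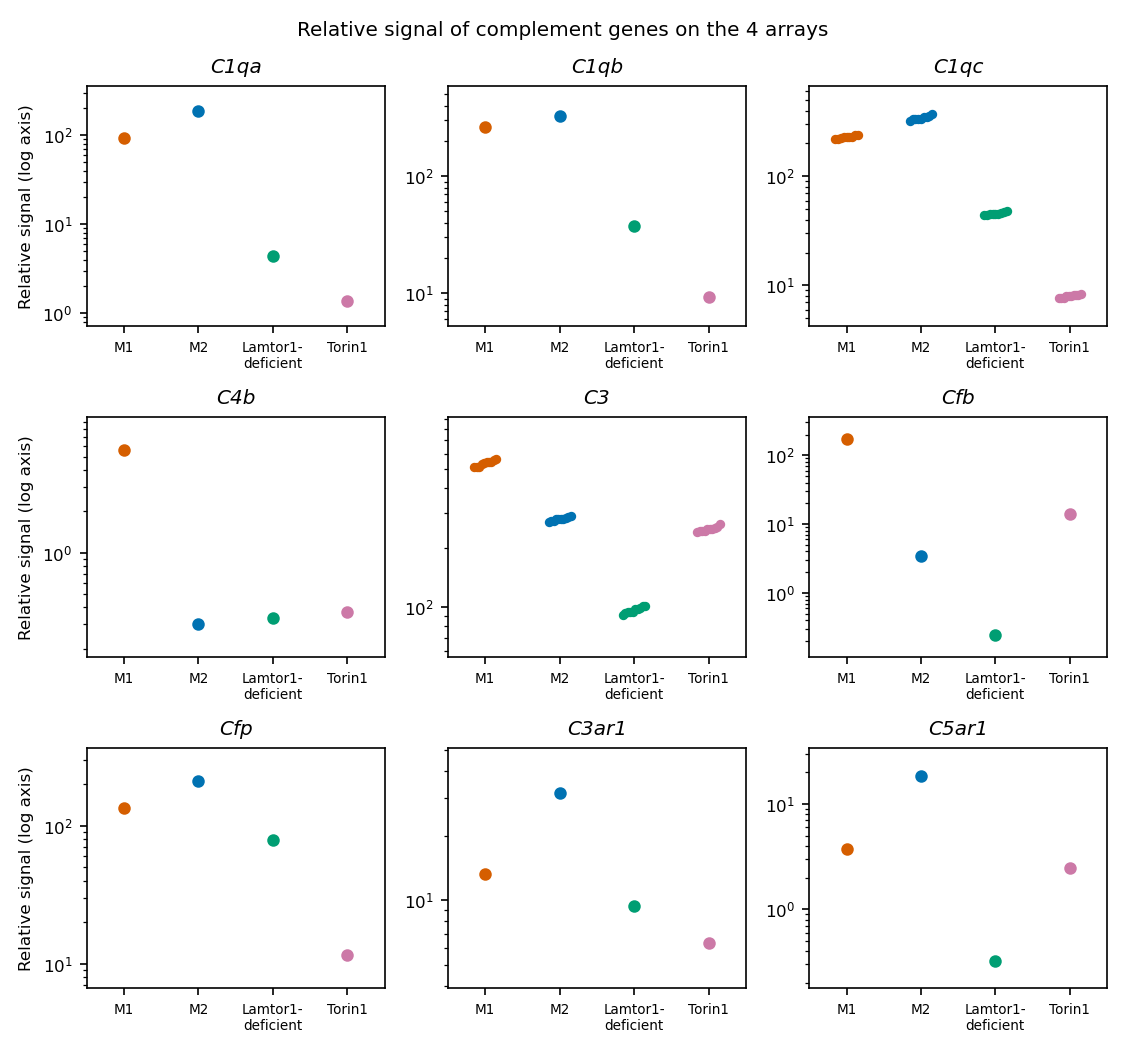
Relative signal (log axis, processed signal divided by the 75th percentile of the array) of 9 complement genes in M1, M2, Lamtor1-deficient M2 and Torin1-treated M2 BMDMs, 1 array each. Each point is a probe mean from its spots, except for C1qc and C3, whose repeated spots are shown one by one, ordered by value. The C1q chains, Cfp and C3ar1 were lowest on the Torin1 array, whereas C3, Cfb and C5ar1 were lowest on the Lamtor1-deficient array.

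The 3 C1q chains were high in M1 and M2 and much lower in the Lamtor1-deficient and Torin1-treated states. These chains assemble together into the C1q molecule, and their genes lie side by side on chromosome 4 in the order C1qb, C1qc, C1qa. For C1qa the relative signal was 92.2 in M1, 186 in M2, 4.40 without Lamtor1 and 1.37 with Torin1. For C1qb the signals were 265, 329, 37.8 and 9.36 in the same order. C1qc was spotted 10 times, and its mean over the spots kept was 229 ± 7.54 in M1, 342 ± 14.4 in M2, 45.6 ± 1.40 without Lamtor1 (SD over 9 spots each) and 7.99 ± 0.221 with Torin1 (SD over 10 spots). All 3 chains therefore followed the same order of states, from M2 through M1 and Lamtor1-deficient to Torin1-treated BMDMs, and the repeated spots of C1qc did not overlap between any of the 4 arrays.

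The sizes of these differences were not equal among the chains. C1qa was 42.2-fold lower in Lamtor1-deficient M2 and 136-fold lower in Torin1-treated M2, with log2 ratios of -5.40 and -7.08, which placed it 14th and 5th from the lowest among the 13759 and 13834 genes well above background on both arrays. C1qb was 8.69-fold lower with Lamtor1 deficiency and 35.1-fold lower with Torin1. C1qc was 7.52-fold and 42.8-fold lower. The log2 ratio of C1qa minus that of C1qb was -2.28 and minus that of C1qc was -2.49 in the Lamtor1-deficient state, where the technical SD of such a difference was 0.11. With Torin1 these differences were -1.95 and -1.66, where the SD was 0.12. The ratios of C1qb and C1qc differed by -0.21 and 0.29, which is 1.84 and 2.43 times that SD. The SD takes both chains as single spots and is on the large side for C1qc, a mean over 9 or 10 spots. On the M2 array, the array of reference, none of the 3 probes was saturated.

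All 3 chains were lower with Torin1 than with Lamtor1 deficiency. The log2 ratio of Lamtor1-deficient over Torin1-treated M2 was 1.69 for C1qa, 2.02 for C1qb and 2.51 for C1qc. In M1 against M2 the ratios were smaller, at -1.01, -0.31 and -0.58, so that C1qa just passed 2-fold and the other two did not. With each array shifted to its median in place of the 75th percentile, C1qb and C1qc passed it as well, at -1.13 and -1.40. Of the 8 macrophage markers, 3 were at least 2-fold lower than M2 without Lamtor1 and 2 with Torin1, and 0 were higher in either, by the brightest probe of each. For Itgam, a chain of complement receptor CR3, that probe gave log2 ratios of -0.81 and 0.15, and the other probes gave -2.34 and -2.81, and -1.10 and -1.76. Fcgr1, a receptor for IgG, had a relative signal of 29.2 in M1, 5.20 in M2, 0.167 without Lamtor1 and 0.213 with Torin1, and Emr1, a marker of mature macrophages, had 54.4, 112, 18.8 and 15.9. Cd68, Mertk and Lyz2 lay above M2 in both states by less than 2-fold. The summed signal of the whole list was 475 in M1, 799 in M2, 645 without Lamtor1 and 661 with Torin1. The part of macrophage content in the C1q values was not tested.

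Because the inequality of the chains rests on 1 probe each, the probes of C1qa and C1qb are shown, both 60 bases long, on the minus strand of mm9 at chr4:136452409-136452468 and chr4:136436578-136436637. No other probe on the array had either sequence. Capitals are not used because no part of a probe is singled out.
C1qa: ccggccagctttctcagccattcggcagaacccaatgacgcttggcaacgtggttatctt
C1qb: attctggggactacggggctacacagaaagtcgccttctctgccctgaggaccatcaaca

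The genes with the profile closest to the mean of the C1q chains were found by the root mean square difference of their centred log2 signals over the 4 arrays, among 12690 genes well above background on all of them. They were Clec4a1 (0.299), Folr2 (0.415), Ccnd1 (0.548), H2-DMa (0.603) and Cd72 (0.620). Clec4a1 encodes a C-type lectin of myeloid cells and Folr2 a folate receptor found on tissue macrophages. Clec4a1 had log2 ratios to M2 of -0.62 in M1, -4.46 without Lamtor1 and -5.79 with Torin1, and Folr2 of -0.10, -4.20 and -5.24. Within the chains, C1qb and C1qc were nearest to each other at 0.206, which made C1qc the closest of 12692 genes to C1qb. Likeness over 4 arrays is a description of these arrays.

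The low signals of the C1q chains in the treated and the deficient state did not extend to the genes around them. Of 8 flanking genes in RefSeq order, 7 were on the array and 4 were well above background on at least 1 array of each comparison, namely Ephb2, Kdm1a, Zbtb40 and Cdc42. Their log2 ratios lay between -0.22 and 0.12 for Lamtor1-deficient M2 and between -0.68 and 0.20 for Torin1-treated M2, so that 0 of 4 passed 2-fold in either. In M1, Zbtb40 was lower at -1.62. The gene next to C1qb, Ephb2, encodes a receptor tyrosine kinase and had ratios of -0.00 and -0.04.

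**Figure D2:**
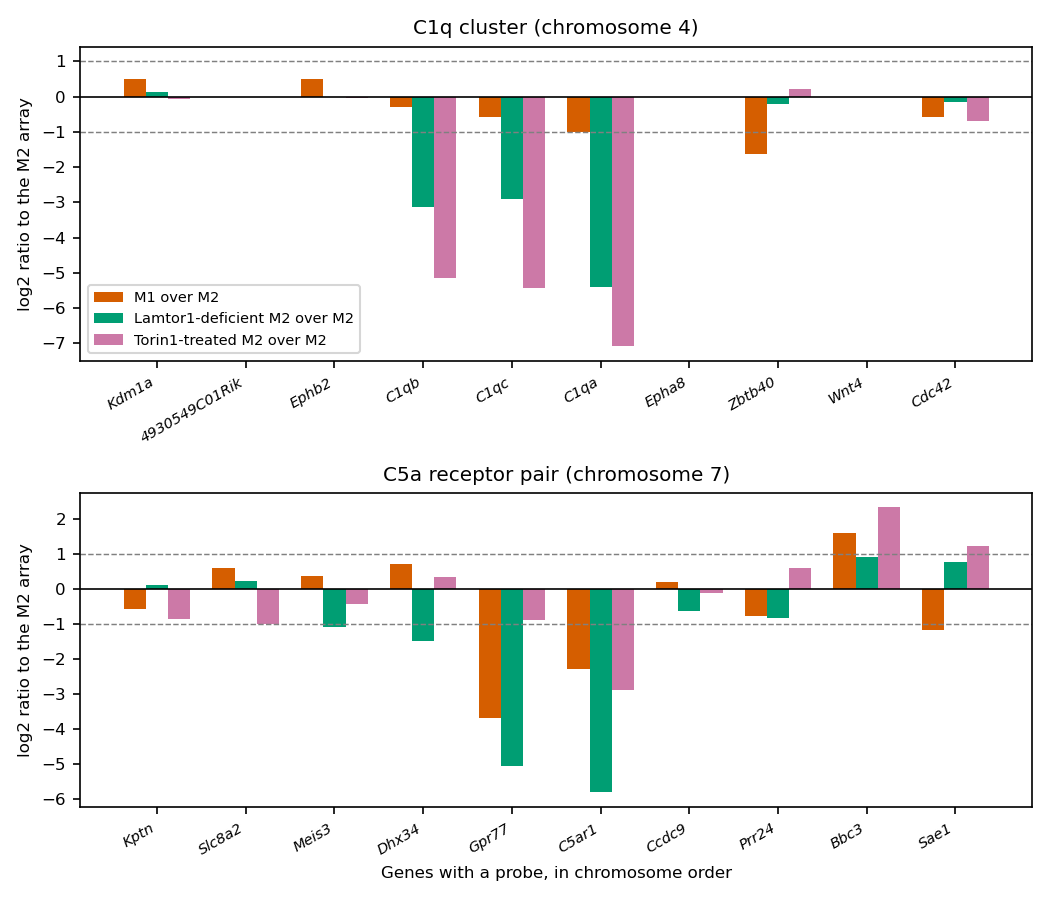
log2 ratio to the M2 array of genes in chromosome order around the C1q cluster and around the pair of C5a receptors, with bars only for genes well above background on at least 1 of both arrays and dashed lines at 2-fold. The C1q chains stand below their neighbours in the Lamtor1-deficient and Torin1-treated states, and C5ar1 and Gpr77 stand below theirs in the Lamtor1-deficient state.

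The 250 bases before the RefSeq start of a gene were in the reference for 6 of the 9 members (C1qb, C1qc, C3, C3ar1, C5ar1 and Cfp) and were searched on both strands, with N for any base, for 6 motifs. These were the GAS element of STAT factors (TTCNNNGAA), a core of the interferon-response element (GAAANNGAA), an NF-kB site (GGGNNTTCC), a PU.1-IRF composite (GGAANNGAA), an E-box of the MiT/TFE family (TCANNTGA) and an LXR recognition hexamer (GGTTCA). Neither the C1qb nor the C1qc window held any of the 6, which says only that these letters were not there. The 120 bases before each start are shown because the data tie these genes together, at chr4:136886201-136886320 for C1qb and chr4:136892915-136893034 for C1qc, minus strand of GRCm38.p6, from RefSeq.
C1qb: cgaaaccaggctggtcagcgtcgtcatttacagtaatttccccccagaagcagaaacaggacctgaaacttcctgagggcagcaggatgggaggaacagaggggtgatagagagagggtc
C1qc: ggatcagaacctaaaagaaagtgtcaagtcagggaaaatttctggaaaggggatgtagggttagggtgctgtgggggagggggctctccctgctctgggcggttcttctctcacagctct

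C4b, the component that follows C1q in the classical pathway, behaved unlike it. Its relative signal was 5.63 in M1, 0.300 in M2, 0.333 without Lamtor1 and 0.367 with Torin1. It was therefore high on 1 array only, 18.7-fold above M2 in M1 with a log2 ratio of 4.23. With a shift to the array median that ratio was 3.41. Its 3 signals with IL-4 lay within ratios of 0.15 and 0.29 to M2. C4b has a near-identical paralogue, C4a, which no probe of the array is named for, so the signal of this probe may come from either gene.

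C3, on which the classical, lectin and alternative pathways converge, was lower with Lamtor1 deficiency and within 2-fold of M2 with Torin1. Its probe with 10 spots gave a relative signal of 536 ± 17.8 in M1, 279 ± 6.34 in M2, 96.3 ± 3.55 without Lamtor1 and 248 ± 7.38 with Torin1 (SD over 10 spots each). C3 was thus 2.90-fold lower in Lamtor1-deficient M2 (log2 ratio -1.54), whereas the ratio with Torin1 was -0.17. This is about 2 times the technical SD, which is that of single spots. The repeated spots did not overlap, at 270 to 290 in M2 and 239 to 264 with Torin1. The Torin1 ratio was -0.42 with a shift to the array median and -0.69 with quantile normalization. In M1 C3 was 1.92-fold higher, short of 2-fold. This log2 ratio of 0.94 was 0.12 with a shift to the array median and 0.34 with quantile normalization. A second C3 probe gave 284, 170, 50.9 and 137 in the same order of states, with log2 ratios to M2 of 0.74, -1.74 and -0.31, so both probes placed the states in the same order. The genes closest to C3 in profile were Blvrb (0.0662), Dleu2 (0.0858) and Hgsnat (0.123), of which Blvrb encodes biliverdin reductase B. The C3 window held the LXR hexamer on the plus strand of the gene 185 bases before the start, a motif present in 8.85% of all 32851 promoter windows.

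Cfb, the enzyme component of the alternative pathway, covered the widest range of the 9 genes and was the one whose ratios to M2 went opposite ways in the treated states. Its relative signal was 173 in M1, 3.45 in M2, 0.241 without Lamtor1 and 14.0 with Torin1. In M1 it was 50.1-fold above M2 (log2 ratio 5.65, or 4.83 with a shift to the array median). Relative to M2 it was 14.3-fold lower with Lamtor1 deficiency (-3.84) and 4.05-fold higher with Torin1 (2.02). The direct log2 ratio of Lamtor1-deficient over Torin1-treated M2 was -5.86, a 58.0-fold difference, which was the second lowest among 13810 genes well above background on both arrays.

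The Cfb probe is shown because this split rests on it alone. Its 60 bases align to chr17:34993502-34993858 of mm9, minus strand, a stretch longer than the probe, so it crosses an intron and reads spliced RNA.
Cfb: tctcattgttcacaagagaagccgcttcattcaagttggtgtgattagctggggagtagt

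C2, the classical pathway counterpart of factor B, is the neighbour of Cfb on chromosome 17, and these neighbours did not move alike. C2 had a relative signal of 4.05 in M1, 0.318 in M2, 0.596 without Lamtor1 and 0.628 with Torin1. It was 12.7-fold above M2 in M1, as Cfb was higher there, and its log2 ratios of 0.91 and 0.98 in the treated states were short of 2-fold and did not differ between treatments by more than the technical SD. Of 13 further genes around Cfb, C2 and C4b, 12 were well above background on at least 1 array of each comparison. Prrt1 and Tnxb were the 2 that were lower than M2 in both treated states, with Tnxb at -3.84 and -4.05.

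Cfp encodes properdin, the positive regulator of the alternative pathway, which neutrophils also store. Its relative signal was 134 in M1, 210 in M2, 78.3 without Lamtor1 and 11.6 with Torin1. It was 2.68-fold lower with Lamtor1 deficiency (log2 ratio -1.42) and 18.2-fold lower with Torin1 (-4.18). Its order of states was that of the C1q chains, and at 0.703 it was the 13th nearest gene to C1qc among 12692. In M1 it was 1.56-fold lower than in M2, short of 2-fold, but reached a log2 ratio of -1.47 with a shift to the array median. The direct log2 ratio of Lamtor1-deficient over Torin1-treated M2 was 2.76 for Cfp. The 6 neutrophil markers lay on the same side, from 0.03 for S100a8 and S100a9 to 0.89 for Ngp, 1.02 for Mpo and 1.38 for Ltf, and their part in the Cfp value was not tested.

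**Figure D3:**
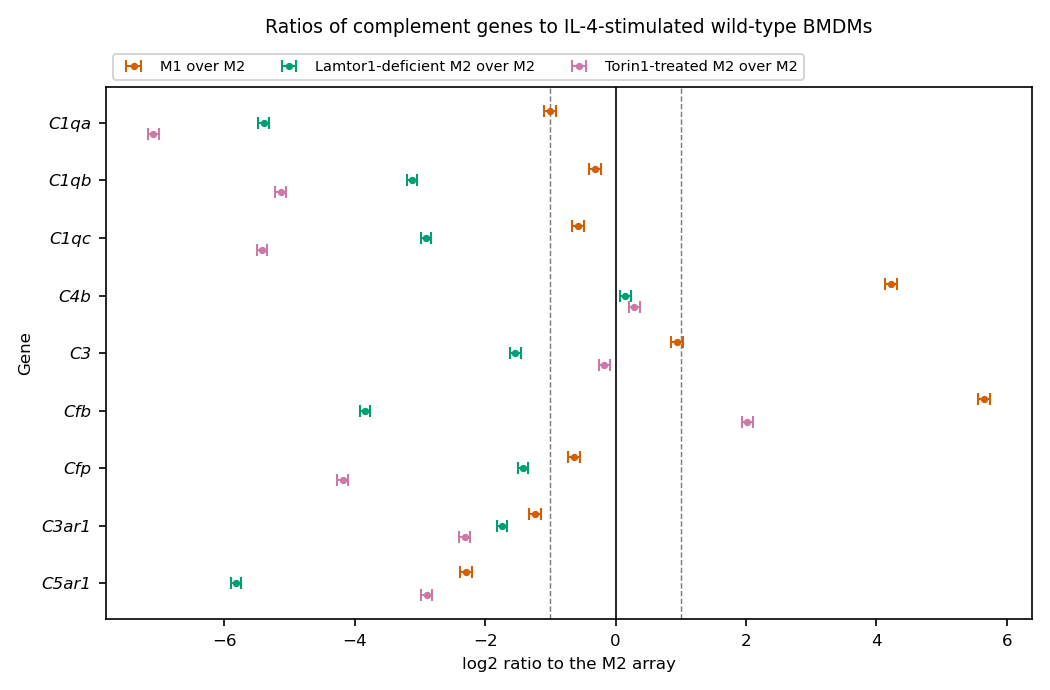
log2 ratio to the M2 array of 9 complement genes in M1, Lamtor1-deficient M2 and Torin1-treated M2 BMDMs, with dashed lines at 2-fold and bars of 1 technical SD from repeated spots, which leave out variation between cultures. Cfb lies at -3.84 with Lamtor1 deficiency and 2.02 with Torin1, while the C1q chains lie between -2.91 and -7.08 in both.

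Both anaphylatoxin receptors were highest in M2. C3ar1, the receptor for C3a, had a relative signal of 13.3 in M1, 31.5 in M2, 9.40 without Lamtor1 and 6.33 with Torin1. It was 2.36-fold, 3.35-fold and 4.97-fold lower than M2 in these states, and the direct log2 ratio between the treated states was 0.57, short of 2-fold. C5ar1, the receptor for C5a, had a relative signal of 3.76 in M1, 18.5 in M2, 0.327 without Lamtor1 and 2.48 with Torin1. It was 56.5-fold lower with Lamtor1 deficiency (log2 ratio -5.82), the 9th lowest of the 13759 genes well above background on both arrays. With Torin1 it was 7.45-fold lower (-2.90). The direct log2 ratio of -2.92 showed that the order of the treated states was the reverse of that of the C1q chains. Neutrophils carry C5ar1 too, and the neutrophil sum was 90.5 on the M2 array. In the direct ratio all 6 neutrophil markers were higher without Lamtor1 than with Torin1, by log2 ratios of 0.03 to 1.38, and C5ar1 was 7.58-fold lower. The part of neutrophil RNA in the C5ar1 values was not tested.

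The second C5a receptor, C5ar2, is the neighbour of C5ar1 on chromosome 7 and is named Gpr77 on the array. It had a relative signal of 1.05 in M1, 13.6 in M2, 0.407 without Lamtor1 and 7.30 with Torin1. It was 33.5-fold lower with Lamtor1 deficiency (log2 ratio -5.07), and a second probe gave -5.23. With Torin1 its ratio was -0.90, short of 2-fold. Both C5a receptors were thus lower in the Lamtor1-deficient than in the Torin1-treated state, by a direct log2 ratio of -2.92 for C5ar1 and -4.16 for Gpr77. Of 8 flanking genes, each well above background on at least 1 array of each comparison, 2 were lower than M2 in the Lamtor1-deficient state, with Dhx34, the gene beside Gpr77, lowest at -1.50. In the direct ratio 3 of the 8 were lower, namely Dhx34 (-1.84), Prr24 (-1.44) and Bbc3 (-1.41), where 12.6% of all genes were lower. Slc8a2 was computed at 1.22, where 11.7% of all genes were higher, but was not well above background with Torin1. It therefore gives only a bound, from 0.0663 without Lamtor1 against a lowest detected signal of 0.0335 with Torin1.

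The C5ar1 window held the interferon-response core on the minus strand of the gene 66 bases before its start, which 7.13% of all 32851 windows held. Its 120 bases before the start are shown, at chr7:16259339-16259458 on the minus strand of GRCm38.p6, with this match in capitals, for comparison with the C1q windows, which lack it. A match is a description of letters and not evidence of a bound factor.
C5ar1: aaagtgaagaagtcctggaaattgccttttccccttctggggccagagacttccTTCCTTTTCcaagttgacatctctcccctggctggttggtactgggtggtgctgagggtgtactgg

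**Figure D4:**
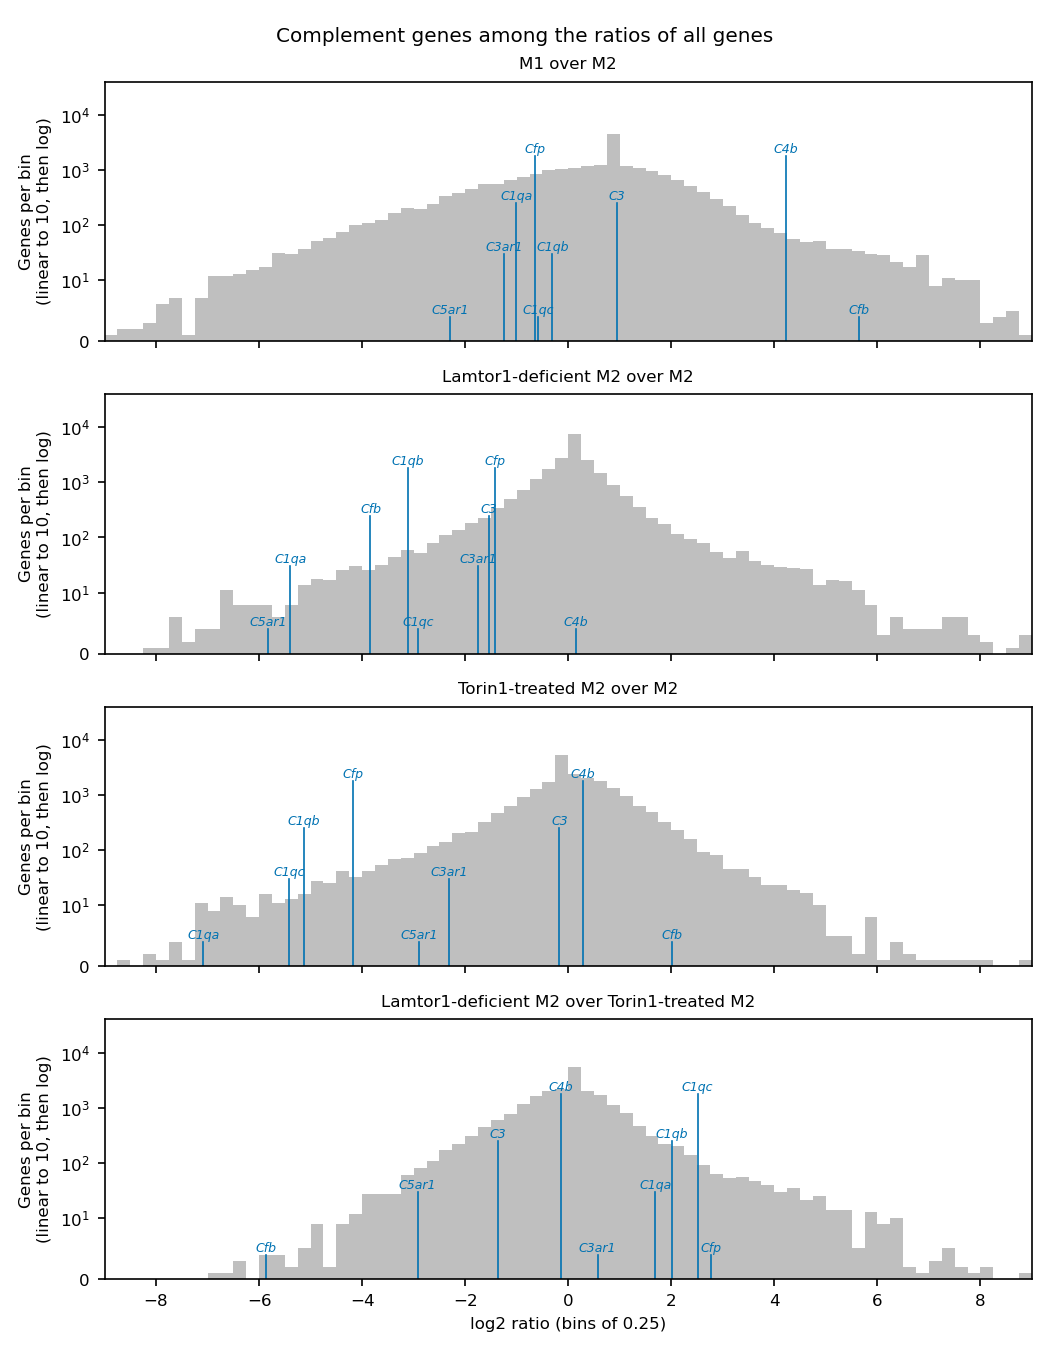
Number of genes per bin of log2 ratio (linear up to 10, then log) for the 4 comparisons, over all genes with a symbol and drawn between -9 and 9, with the 9 complement genes marked by lines whose height only separates the labels. C1qa and C5ar1 lie in the lower tail with Lamtor1 deficiency, at -5.40 and -5.82, and Cfb lies near the lower end of the direct ratio, at -5.86.

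The other complement genes gave a background for these 9. A list of 46 was written from general knowledge, but with earlier results of these data known, and 43 of them were on the array. Of these, 3 were lower and 6 higher than M2 in the Lamtor1-deficient state, 9 lower and 6 higher in the Torin1-treated state, and 9 lower and 16 higher in M1. Among those well above background on at least 1 of both arrays, 3 of 26 were lower and 5 higher with Lamtor1 deficiency, where 10.4% of all such genes were lower and 10.5% higher. With Torin1, 9 of 28 were lower and 5 higher, where 15.3% were lower and 14.9% higher. In M1, 9 of 28 were lower and 7 higher, where 27.9% were lower and 28.1% higher. In the direct ratio of Lamtor1-deficient over Torin1-treated M2, 10 of 27 were higher and 5 lower, where 15.0% and 13.3% of such genes were. The median log2 ratio over the 43 was 0.03 with Lamtor1 deficiency, -0.07 with Torin1 and 0.85 in M1. Over the detected genes alone it was -0.06, -0.37 and -0.08.

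The proteases that C1q activates did not follow the C1q chains with Lamtor1 deficiency. C1ra, the first of them, had a relative signal of 2.89 in M1, 2.16 in M2, 1.74 without Lamtor1 and 0.599 with Torin1, and its log2 ratio with Torin1 was -1.85. C1s, the protease that cleaves C4 and C2, had 0.920, 0.139, 0.885 and 0.109, so that it was 6.38-fold above M2 with Lamtor1 deficiency and 1.28-fold below it with Torin1. Serping1, the inhibitor of these proteases, had 9.12, 1.42, 4.07 and 0.506, and was 2.86-fold higher with Lamtor1 deficiency and 2.80-fold lower with Torin1. C1s and Serping1 were thus on opposite sides of M2 in the treated states, the reverse of Cfb, though C1s was short of 2-fold with Torin1. Fibroblasts also make both, and the summed signal of 6 fibroblast markers was 16.0 in M1, 43.2 in M2, 55.9 without Lamtor1 and 15.3 with Torin1, of which most was Col1a1 and Col1a2 except in M1, where most was Dcn. In M1, where C1s and Serping1 were above M2, Col1a1, Col1a2 and Col3a1 had log2 ratios to M2 of -3.81, -2.40 and -3.35. Pdgfra was at least 3.76-fold lower there, and Lum, not well above background in M1, gave no fold. Dcn was higher, with 9.27, 1.58, 5.96 and 1.03 over the states. In the direct ratio all 5 fibroblast markers detected were higher without Lamtor1 than with Torin1. The part of fibroblast RNA in these values was not tested.

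Receptors outside the 9 differed among themselves. Vsig4, a macrophage receptor for C3b, had 0.540 in M1, 0.542 in M2 and 0.133 in Torin1-treated BMDMs and was not well above background with Lamtor1 deficiency, at least 14.5-fold below M2. Cd93, once described as a C1q receptor, had 21.4, 71.0, 150 and 189, above M2 in both treated states. Itgax, a chain of complement receptor CR4, had 2.17 in M1, 296 in M2, 204 without Lamtor1 and 128 with Torin1, and was 137-fold lower in M1 than in M2. Colec12, a scavenger receptor of the collectin family, was 2.61 above M2 on the log2 scale with Lamtor1 deficiency and -0.07 with Torin1.

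**Figure D5:**
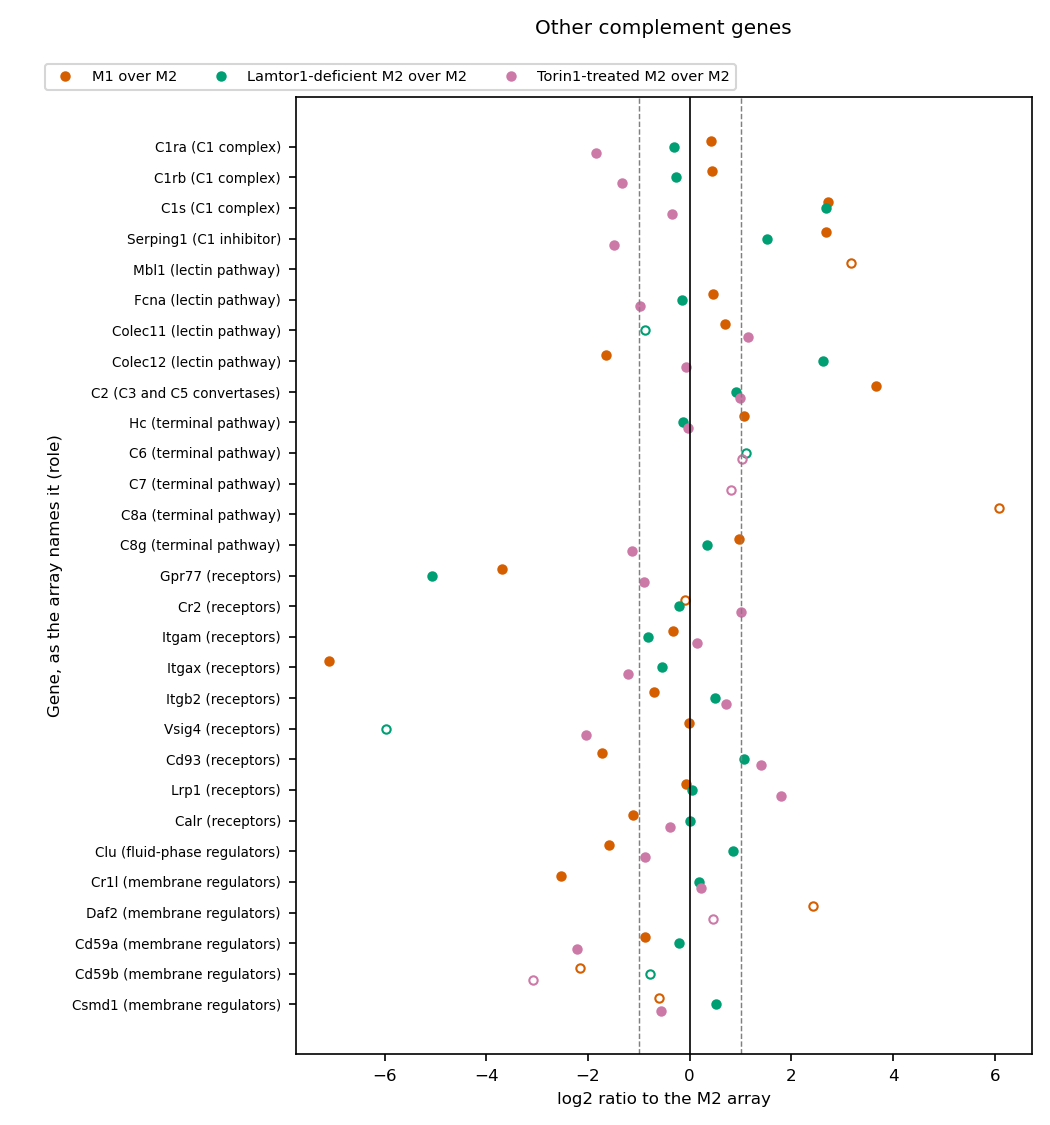
log2 ratio to the M2 array of the other complement genes that were well above background on at least 1 array, grouped by role, for M1, Lamtor1-deficient M2 and Torin1-treated M2 BMDMs, with dashed lines at 2-fold. Some genes are not shown. Open circles are ratios in which 1 of both arrays was not well above background, drawn at the computed value and not at the bound, and ratios with neither array above background are left out. Gpr77 lies at -5.07 with Lamtor1 deficiency, and C1s and Serping1 lie on the right for that state and on the left for Torin1.

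The terminal pathway was represented by few detected genes. C8g, a subunit of the membrane attack complex, had a relative signal of 1.41 in M1, 0.722 in M2, 0.910 without Lamtor1 and 0.328 with Torin1, and its log2 ratio of -1.14 with Torin1 was -0.27 by a second probe. The probes also differed in sign without Lamtor1, at 0.33 and -0.79, and in the direct ratio, at 1.47 and -0.52. Hc, which encodes C5, the precursor of the ligand of both C5a receptors, had a relative signal of 0.101 in M1, 0.0478 in M2, 0.0434 without Lamtor1 and 0.0468 with Torin1, where the lowest signal called well above background was between 0.0335 and 0.0656 across arrays. Cfd, the protease that cleaves factor B, and Cfi, which inactivates C3b, were not well above background on any array. C8a was well above background in M1 by 1 of its 2 probes, at 0.646, and on no other array.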

How the data were processed

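The authors deposited scanner files of 4 one-colour arrays, 1 per condition, holding the intensity of each spot. The labels give Agilent Feature Extraction 10.5.1.1 and the file headers 10.7.3.1. The deposited processed signal is background-subtracted and detrended within each array, and not normalized between arrays. Background medians and mean signals served for an alternative. A deposited table of the whole series holds intensities that differed from these by at most 0.497%.

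Control spots and spots marked as outliers were left out, spots of a probe were averaged, signals were raised to at least 1 and divided by the 75th percentile of the array (287 in M1, 595 in M2, 536 without Lamtor1 and 470.0 with Torin1), and log2 was taken. No spot was saturated. Between 50.9% and 55.4% of probes per array were well above background, which together with the number of arrays limits the precision. The brightest probe stood for a gene with several. A probe above background on 1 array only gives a bound against the lowest signal called well above background on the other array, written as "at least". Probe positions follow the array annotation (mm9), and gene order and promoters are from RefSeq (GRCm38.p6), in which all 9 symbols were found. Exon annotation of mm9 was not used here.

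The labels gave 1 sample per group, so no test and no p-value was computed, and 4 ratios were compared. Members and gene lists were chosen with earlier results of these data known. Some genes of the lists enter the counts but are not reported here by name. All 9 members are named, and other genes were named from the lists, by the nearest profiles or as neighbours on the chromosome. The procedure recovered 200 of 200 planted changes on simulated data for M1 over M2. Alternatives were other scalings (median, quantile, percentile over detected probes), limma's normexp correction (offset 50), a floor, 2 filters on dim probes, retained outlier spots, another probe rule, the series table and a 3-fold threshold. Python 3.11.15 (pandas 2.3.3, NumPy 2.4.6, matplotlib 3.10.9) and R 4.3.3 (limma 3.58.1) were used.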

Additional observations from a re-analysis of the deposited data

How the results depend on the processing

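The log2 ratios of the 9 genes were recomputed under every alternative, 360 values in all. The floor and the filters on dim probes could not move these genes, nor could the probe rule where a gene had 1 probe, which left 220 values, of which 133 moved by less than 1 technical SD and 87 by more. None of the ratios past 2-fold changed sign. At 2-fold the calls changed only in M1 over M2, where C1qb, C1qc and Cfp reached -1.13, -1.40 and -1.47 with a shift to the array median, so that 6 of the 9 genes were lower in place of 3, and with a 3-fold threshold 1 was. With a 3-fold threshold 6 genes were lower without Lamtor1 in place of 8, since C3 and Cfp were at 2.90-fold and 2.68-fold, and C3 also dropped out of the direct ratio at 2.58-fold. With normexp, Cfb was at -3.23 without Lamtor1, against -3.84, and at -5.21 in the direct ratio, against -5.86. A median shift moved the median of all genes in M1 over M2 from 0.73 to -0.09. C4b, at -0.14 in the direct ratio, was 0.17 with the median shift, short of 2-fold in both.

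The list of other complement genes depended more on the processing. With a 3-fold threshold, 10 were higher in M1, 2 higher with Lamtor1 deficiency, 2 higher and 5 lower with Torin1, and 7 higher in Lamtor1-deficient than in Torin1-treated M2, against 16, 6, 6, 9 and 12 at 2-fold. The number higher in M1 was 7 with a floor, 9 with normexp, 6 with quantile normalization, 8 with the median shift, and 7 or 4 with probes well above background on 1 or every array compared. The number higher with Torin1 was 2 with normexp and 3 with quantile normalization or the median shift, and the number lower in Lamtor1-deficient than in Torin1-treated M2 was 2 with normexp and 3 with the strict filter, against 6.

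The list's median in M1 over M2 was -0.060 with quantile normalization, 0.024 with the median shift, -0.080 with the filter on 1 array and -0.063 with the strict filter, against 0.85. For Torin1 over M2 it was 0.012 with the percentile over detected probes, 0.14 with normexp, -0.32 with the median shift and -0.37 and -0.47 with the filters, against -0.07. For Lamtor1-deficient over Torin1-treated M2 it was -0.052 with the percentile over detected probes, -0.093 with normexp, 0.21 with quantile normalization, 0.41 with the median shift and 0.67 with the strict filter, against 0.10. For Lamtor1-deficient over M2 it was -0.065 with the filter on 1 array, against 0.03. The causes were not tested. No paired analysis was possible because each condition had 1 array.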
